A study of Mus musculus with 12 samples.

Results

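Tpm1, Tpm2, Tpm3, Pkm, Bin1, Mef2a, Mef2d and Fxr1 are genes whose transcripts are known to be spliced differently in skeletal muscle and in other cells. They were followed here transcript by transcript in Rd76-9 tumors, as each RefSeq transcript's share of its gene's summed tpm, a level corrected for transcript length and sequencing depth. The 8 genes have 129 transcripts in the deposited tables, and 63 of them had a mean of 1 tpm or more over the 12 tumors and were kept, of 28795 such transcripts of all genes and 120299 listed in all. The 63 kept transcripts held between 90.6% (Mef2a) and 100% (Tpm2 and Fxr1) of their gene's tpm. The cell line, of mouse origin, models embryonal rhabdomyosarcoma (RMS), a muscle-lineage cancer, and goes back to a female animal whose tumor had been raised with methylcholanthrene. All tumors grew from these cells in the flank of wild-type C57/Bl6J mice and were taken at day 16, and the mice were 8 to 12 weeks old when injected. The mice received vehicle (saline and empty nanoparticles; m1, m2 and m3), vincristine (VCR) at 0.25 mg/kg (m4, m5 and m6), 8 µg of the FOXM1 inhibitor RCM1 in folic acid nanoparticles (RCM1-NPFA; m7, m8 and m9), or both agents at these doses (m10, m11 and m12), with 3 tumors per group. One label of the vehicle tumors also names RCM1, so the group was set by the titles. Each tumor was sequenced in bulk, and the estimated counts of a tumor summed to between 29342195 and 32108055.

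Muscle-type splicing swaps parts of a protein without changing which gene is used. Tropomyosins, the products of Tpm1, Tpm2 and Tpm3, lie along actin filaments, and their striated muscle forms end in the residues coded by exon 9a, which bind troponin, where most other cells use exon 9d. Pkm codes for pyruvate kinase, the last enzyme of glycolysis, and includes either exon 9 (the M1 form of adult muscle) or exon 10 (the M2 form of growing and tumor cells). Bin1 shapes the T-tubule membranes of muscle, Mef2a and Mef2d are transcription factors of muscle differentiation in which a ubiquitous exon, alpha1, gives way to alpha2, and Fxr1 is an RNA-binding protein with exons used in striated muscle.

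The exons below carry the distinctions the results turn on. Their sequences are those of the GRCm38 reference. The genes lie at chr9:67022590-67049672 (Tpm1), chr4:43513726-43523583 (Tpm2), chr3:90072651-90100902 (Tpm3), chr9:59656576-59679372 (Pkm), chr7:67231163-67376456 (Mef2a), chr3:88141941-88172091 (Mef2d) and chr3:34020058-34069980 (Fxr1). In Pkm, exon 9 (chr9:59675029-59675195, plus strand) and exon 10 (chr9:59675568-59675734, plus strand) are both 167 bases long. They differ at 64 of them, shown in capitals, and are 61.7% identical.
Pkm exon 9: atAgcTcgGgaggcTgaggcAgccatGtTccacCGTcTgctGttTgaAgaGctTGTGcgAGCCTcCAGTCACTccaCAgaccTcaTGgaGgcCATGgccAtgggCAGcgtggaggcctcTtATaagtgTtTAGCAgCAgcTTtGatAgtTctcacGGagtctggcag
Pkm exon 10: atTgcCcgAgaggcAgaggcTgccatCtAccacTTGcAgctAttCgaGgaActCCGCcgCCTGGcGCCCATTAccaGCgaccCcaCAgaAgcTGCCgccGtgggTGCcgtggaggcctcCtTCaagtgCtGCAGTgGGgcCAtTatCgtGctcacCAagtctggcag

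In Tpm1, exon 9a (chr9:67029664-67029742, minus strand, 79 bases) and the coding part of exon 9d (chr9:67023362-67023441, minus strand, 80 bases) end the protein in different residues. No capitals are used in them.
Tpm1 exon 9a: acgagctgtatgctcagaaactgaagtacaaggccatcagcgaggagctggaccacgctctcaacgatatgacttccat
Tpm1 exon 9d: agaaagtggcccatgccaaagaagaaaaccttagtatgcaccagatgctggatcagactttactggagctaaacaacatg

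The muscle exon of Fxr1 (chr3:34064974-34065054, plus strand, 81 bases) and the beta exon of Mef2d (chr3:88161781-88161801, plus strand, 21 bases) are added to the coding sequence rather than exchanged for another exon.
Fxr1 muscle exon: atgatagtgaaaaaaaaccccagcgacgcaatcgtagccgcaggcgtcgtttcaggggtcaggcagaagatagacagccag
Mef2d beta exon: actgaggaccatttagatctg

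A transcript was typed only where the GENCODE annotation links it to a transcript with one of these exons. Where its deposited length could be compared with that of a partner transcript, the difference also had to match that of the 2 annotated exon chains. The chains were counted from the coding start to a shared 3' end, so exons before the coding start were left out. These lengths do not single out the named exon: the Fxr1 transcript with the muscle exon is 168 bases longer than its partner, more than that exon alone. For 2 minor Tpm1 transcripts and the single typed Bin1 transcript no length was compared. Length also cannot tell the M1 from the M2 transcript of Pkm, or exon 6a from exon 6b in Tpm1. In Tpm1 each length was compared only with a partner of equal length, so exon 9a against exon 9d was not checked. All of these types rest on the link alone. This typed 21 of the 63 transcripts, 8 of them as muscle-type, 1 as holding the beta exon of Mef2d and 12 as other types. The typed transcripts held 94.5% of the tpm of Tpm1, 91.9% of Pkm, 81.7% of Fxr1, 76.3% of Tpm3, 75.1% of Mef2a and 50.7% of Mef2d. They held 18.8% of the tpm of Tpm2 and 15.1% of Bin1, so the remaining transcripts of these genes are given by their identifiers. The muscle-type share of a gene is the summed share of its muscle-type transcripts, and Bin1 has none that was typed.

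Striated Tpm1 RNA was a small part of Tpm1 in vehicle tumors and held up to 47.8% of it after treatment. The transcript with exons 6b and 9a, NM_001164248.1, was at 38.3, 20.5 and 23.2 tpm in the vehicle tumors, at 346, 1074 and 139 tpm after VCR, at 34.2, 26.1 and 2184 tpm after RCM1-NPFA, and at 155, 469 and 54.1 tpm after the combination. All VCR tumors and all combination tumors were above all vehicle tumors, whereas 2 of the 3 RCM1-NPFA tumors lay within the vehicle range and the third, m9, was the highest of all. The mean after VCR was 19.0-fold the vehicle mean and after the combination 8.27-fold, but without m5 it was 8.87-fold and without m11 3.82-fold. In bulk tumors fewer cells of a type and less RNA per cell cannot be told apart, here or in any result that follows. As a share of Tpm1, NM_001164248.1 was 1.29% ± 0.414 (SD, n = 3) in vehicle, 16.0% ± 12.9 (SD, n = 3) after VCR, 16.8% ± 26.9 (SD, n = 3) after RCM1-NPFA and 8.28% ± 7.15 (SD, n = 3) after the combination.

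The main non-muscle Tpm1 transcript, NM_024427.4 with exons 6b and 9d, kept a level of 1489 to 2014 tpm in the 12 tumors. Its share was 79.1% ± 1.75 (SD, n = 3) in vehicle and 67.4% ± 10.2 (SD, n = 3) after VCR, and it was lowest in m9 at 40.9% and m5 at 56.1%. All transcripts other than the muscle-type ones summed to 1812 to 2498 tpm, so the tumors differed far less in this part of Tpm1 than in the exon 9a transcripts. The other exon 9a transcript, NM_001164251.1 with exon 6a, stayed at 2.39 to 12.5 tpm and did not follow the striated one. NM_001164250.1, with exons 6a and 9d, stood at 186 to 326 tpm and held 6.82% to 14.3% of the gene.

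**Figure D1:**
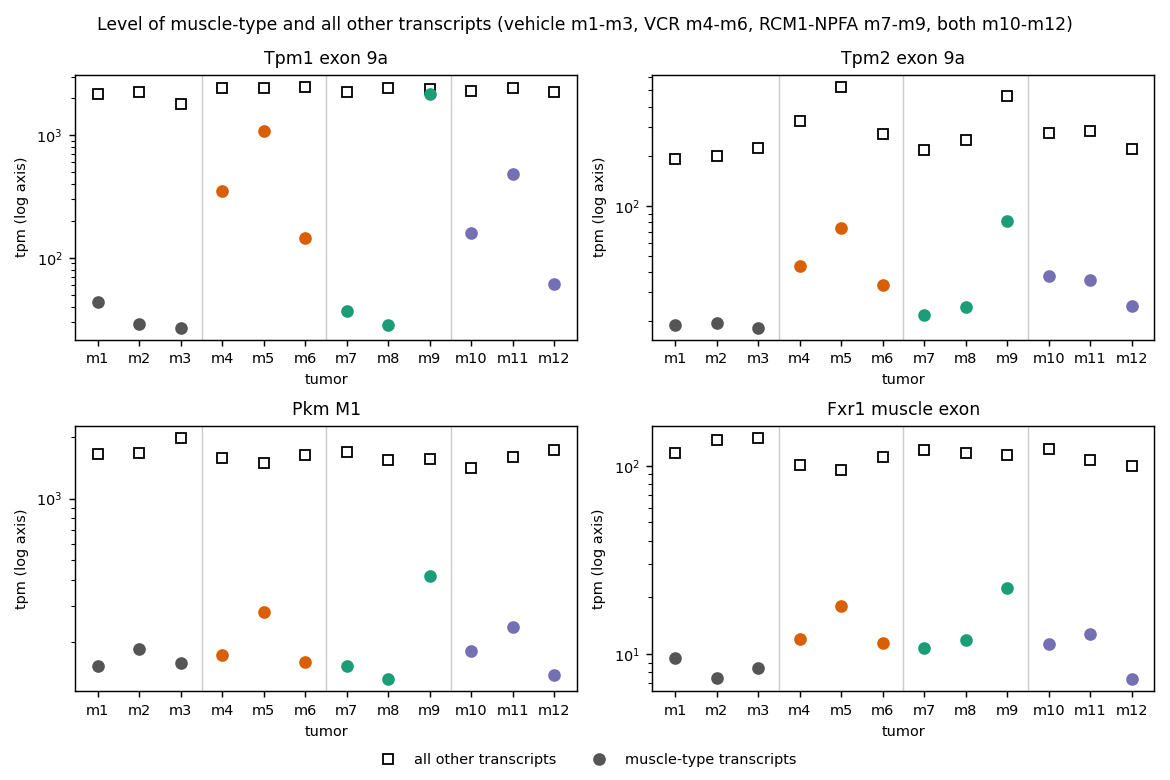
Level in tpm (log axis) of the muscle-type transcripts (filled circles, coloured by group) and of all other transcripts of the gene (open squares) in each of the 12 tumors, for Tpm1, Tpm2, Pkm and Fxr1. For Tpm1 the squares stay between 1812 and 2498 tpm while the circles run from 27.0 to 2188 tpm; in Tpm2 both rise in m4, m5 and m9.

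Whether a treatment moved a transcript relative to the rest of its gene was tested with the quasi-likelihood usage test of edgeR, with Benjamini-Hochberg adjustment over 21967 transcripts of all genes and a threshold of 0.1. A log2 value from this test is the transcript's change in level minus that of its gene as a whole. On counts simulated for VCR against vehicle, 43.5% of this test's calls lay in unchanged genes, more than its threshold allows. For limma's diffSplice it was 4.7%, so limma's adjusted p is given with the calls. Of simulated log2 changes of 1, edgeR found 1% and limma 7%, and of changes of 2, 19% and 39%. A value that did not pass is thus no evidence of an unchanged share. For Tpm1, NM_001164248.1 rose after VCR by 3.86 (adjusted p = 3.63e-05, edgeR), and limma's diffSplice gave 3.57 (adjusted p = 0.00504). After RCM1-NPFA edgeR gave 4.31 (adjusted p = 2.96e-06) and limma 2.08 (adjusted p = 0.314), and without m9 the edgeR value was -0.05 (adjusted p = 1). After the combination it was 2.79 (adjusted p = 0.119, edgeR), and it passed at the same size, 2.79 (adjusted p = 0.000772, edgeR; adjusted p = 0.00359, limma), in the fits without m5 and m9.

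Tpm2 codes for beta-tropomyosin, and its non-muscle transcript fell where the muscle one was high. NM_001277876.1, with exons 6a and 9d, was at 32.7, 33.9 and 38.7 tpm in vehicle tumors, 13.8, 12.1 and 22.9 tpm after VCR, 34.2, 33.5 and 10.8 tpm after RCM1-NPFA and 16.8, 18.1 and 29.7 tpm after the combination. Its share was 15.6% ± 0.279 (SD, n = 3) in vehicle and 4.41% ± 2.82 (SD, n = 3) after VCR, and every treated tumor was below every vehicle tumor, at 14.3% or less against 15.4% or more. The exact permutation p was 0.1 in each of the 3 comparisons with vehicle (two-sided), which is the smallest that 3 against 3 tumors allow. The usage test gave -2.08 after VCR (adjusted p = 0.112, edgeR; adjusted p = 0.073, limma), -1.10 after RCM1-NPFA (adjusted p = 0.782, edgeR) and -1.10 after the combination (adjusted p = 1, edgeR). Without m5 and m9 the edgeR value after VCR was -1.56 (adjusted p = 0.0206; limma adjusted p = 0.0102).

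The muscle-type Tpm2 transcript NM_009416.4, with exons 6b and 9a, held 8.48% ± 0.796 (SD, n = 3) of the gene in vehicle, 11.6% ± 0.651 after VCR, 10.98% ± 3.39 after RCM1-NPFA and 11.1% ± 0.925 after the combination (SD, n = 3 each). All VCR and all combination tumors were above all vehicle tumors (exact permutation p = 0.1 in both, two-sided), and in the RCM1-NPFA group m9 was at 14.9% with m7 and m8 at 9.18% and 8.88%. The usage test did not pass for it (0.46 after VCR, adjusted p = 0.94, edgeR). XM_006537780.1, not typed, held 70.5% to 74.9% of Tpm2 in the 12 tumors, and NM_001277875.1, whose annotation link and length disagree, held 3.54% to 5.19% in vehicle tumors and 5.27% to 10.8% in treated ones.

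Tpm3 is the tropomyosin of slow fibres and of many other cells, and its kept exon 9a transcript showed no such pattern. The long striated transcript of Tpm3 stayed under 1 tpm on average. The muscle-type share of Tpm3, here and below, is therefore not that of the striated form. The kept exon 9a transcript, NM_001271764.2, which starts from the short non-muscle first exon, was at 18.3 to 28.5 tpm and held 5.90% ± 1.09 (SD, n = 3) of Tpm3 in vehicle and 6.62% ± 0.384 (SD, n = 3) after VCR, a difference of 0.72 points (exact permutation p = 0.6, two-sided). The exon 9d transcript NM_001253738.1 held 62.4% to 80.7%. A transcript that was not typed, XM_030252742.1, fell after VCR, from 5.21%, 11.4% and 2.62% of Tpm3 in vehicle tumors to 0.577%, 1.01% and 2.82%, and the groups overlapped. The edgeR value was -2.21 (adjusted p = 0.0374), limma gave -2.28 (adjusted p = 0.104), and without m2, the highest vehicle tumor, edgeR gave -1.41 (adjusted p = 0.324). The call was also lost without m4 (-1.81, adjusted p = 0.233, edgeR) and without m5 (-2.02, adjusted p = 0.241, edgeR).

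**Figure D2:**
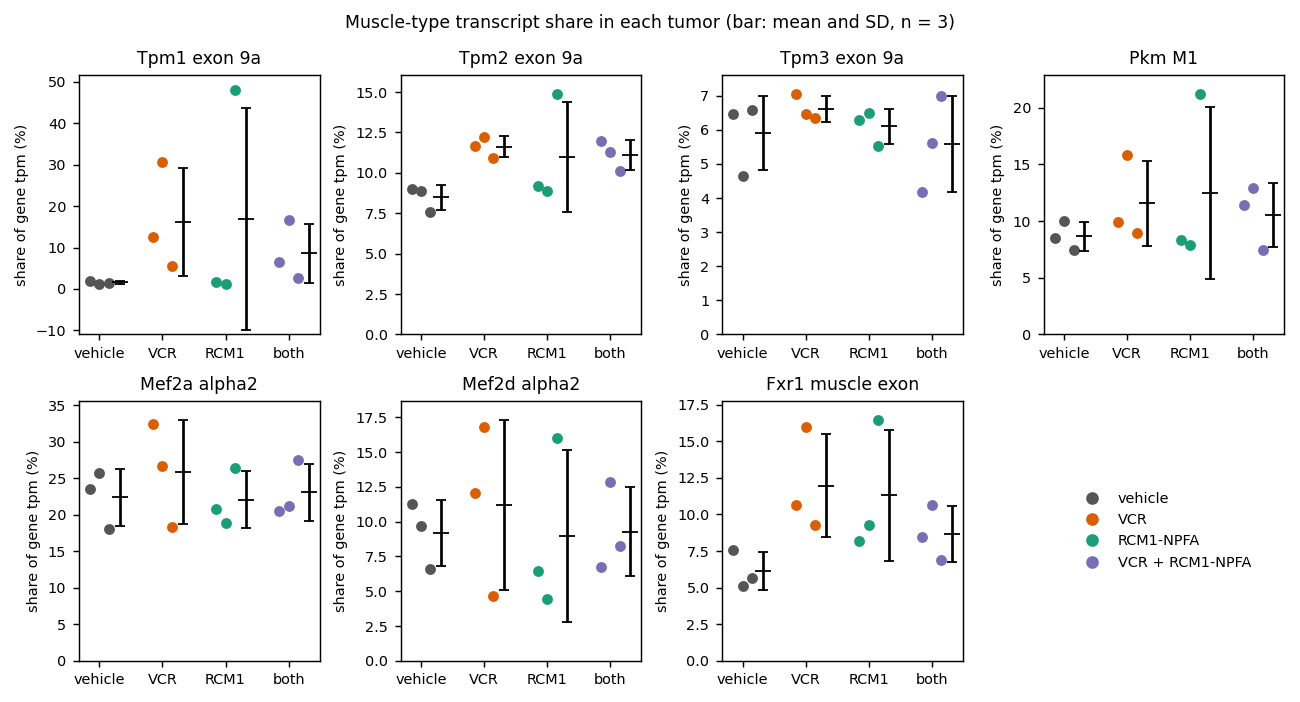
Share of the gene's tpm (percent) held by muscle-type transcripts in each tumor, by group, for the 7 genes with a typed muscle-type transcript; black bars give the mean and SD of 3 tumors. The share of Tpm1 is 1.26% to 1.97% in vehicle tumors and reaches 47.9% in m9, and that of Tpm3 and Mef2a overlaps in all 4 groups.

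Pyruvate kinase RNA stayed mostly of the M2 form in every tumor. The M2 transcript of Pkm, NM_011099.4 with exon 10, was at 1260.1 to 1810.4 tpm and the M1 transcript, NM_001253883.2 with exon 9, at 132 to 417 tpm. Among M1 and M2 together, M1 made up 9.39%, 11.1% and 8.03% in vehicle tumors, 10.6%, 17.2% and 9.63% after VCR, 9.08%, 8.55% and 23.1% after RCM1-NPFA, and 12.6%, 14.0% and 8.07% after the combination. The groups overlapped in every comparison with vehicle, and m9 and m5 stood highest. The M1 level in m9 was 2.26-fold that of the highest vehicle tumor.

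As a share of all Pkm transcripts M1 was 8.64% ± 1.29 (SD, n = 3) in vehicle and 11.6% ± 3.74 (SD, n = 3) after VCR, a difference of 2.93 points (exact permutation p = 0.3, two-sided). After RCM1-NPFA the difference was 3.84 points (exact permutation p = 0.7, two-sided), and without m9 it was -0.52 points. The edgeR usage value for M1 was 0.45 after VCR (adjusted p = 0.231) and 0.58 after RCM1-NPFA (adjusted p = 0.187). A non-coding Pkm transcript that was not typed, NR_166145.1, was at 49.8, 74.9 and 40.0 tpm in vehicle tumors and at 23.9, 26.9 and 26.3 tpm after VCR, without overlap, and its usage value was -0.96 (adjusted p = 0.1775, edgeR).

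Bin1 changed its mixture of transcripts at an even total level: the gene summed to 173 ± 9.3 tpm (SD, n = 3) in vehicle, 174 ± 14.4 after VCR, 177 ± 30.5 after RCM1-NPFA and 168 ± 1.8 after the combination (SD, n = 3 each). XM_006525994.4 was at 0.161, 2.47 and 0.164 tpm in vehicle tumors, 22.3, 48.4 and 17.98 tpm after VCR, 3.43, 2.41 and 72.8 tpm after RCM1-NPFA, and 13.9, 28.4 and 0.0 tpm after the combination. In share of Bin1 this was at most 1.35% in vehicle, 10.9% to 25.4% after VCR and 34.6% in m9, and m12 listed none. It is a predicted RefSeq transcript that could not be typed, so its exons are not given.

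In the usage test of Bin1, XM_006525994.4 rose after VCR by 5.07 (adjusted p = 0.000251, edgeR) and after RCM1-NPFA by 4.83 (adjusted p = 0.00287, edgeR), while limma gave 6.31 (adjusted p = 0.41) and 4.64 (adjusted p = 0.721). Without m9 the edgeR value after RCM1-NPFA was 1.80 (adjusted p = 1). After the combination it was 3.99 (adjusted p = 0.173, edgeR), and without m5 and m9 it passed in edgeR (adjusted p = 0.000543) but not in limma (adjusted p = 0.886).

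A second untyped Bin1 transcript, XM_006525991.4, was at 2.43, 2.56 and 3.96 tpm in vehicle tumors, 8.89, 21.4 and 15.2 tpm after VCR, 2.90, 4.33 and 26.0 tpm after RCM1-NPFA and 8.77, 12.3 and 10.7 tpm after the combination. The VCR and the combination tumors were all above the vehicle tumors, and its usage value after VCR was 2.35 (adjusted p = 0.143, edgeR; adjusted p = 0.0976, limma). The Bin1 transcript linked to an annotated form without the muscle exon, NM_001083334.1, went from 18.8% ± 1.28 (SD, n = 3) of the gene in vehicle to 12.01% ± 1.23 after VCR and 14.8% ± 0.956 after the combination (SD, n = 3 each), without overlap with vehicle in either (exact permutation p = 0.1, two-sided). Its usage value after VCR was -0.63 (adjusted p = 0.732, edgeR).

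**Figure D3:**
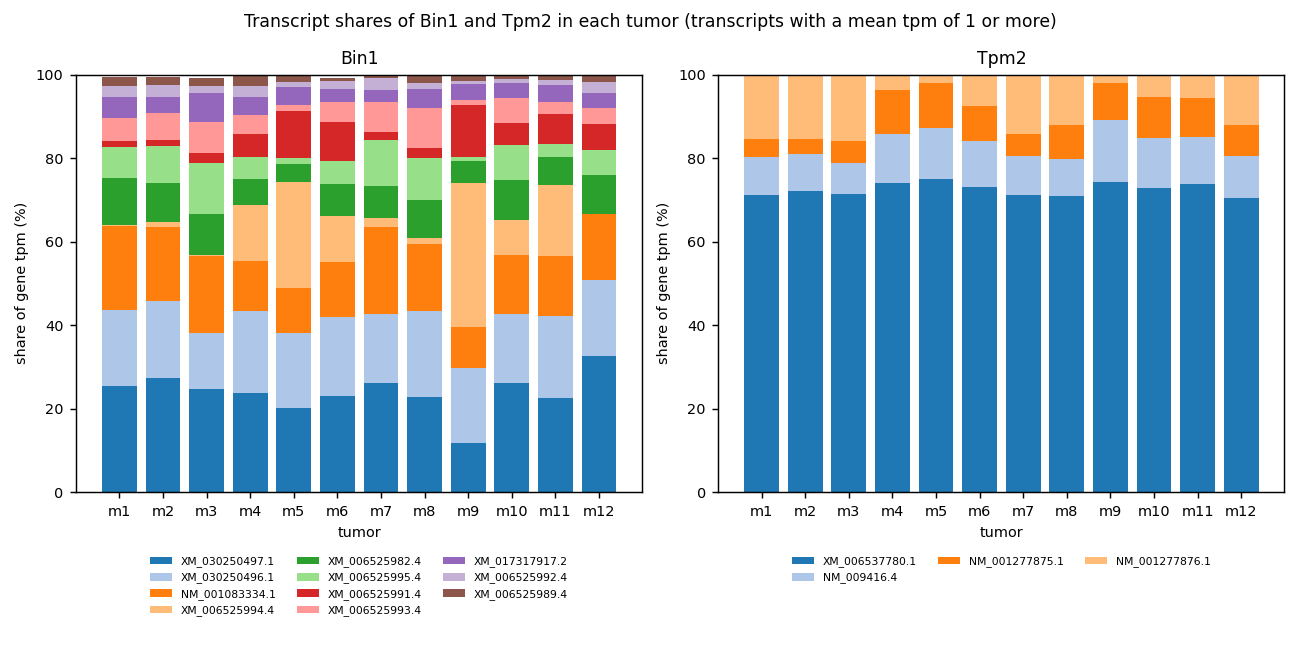
Share of the gene's tpm (percent, stacked) of each kept transcript of Bin1 and Tpm2 in the 12 tumors; m1 to m3 are vehicle, m4 to m6 VCR, m7 to m9 RCM1-NPFA and m10 to m12 the combination. XM_006525994.4 of Bin1 takes 34.6% in m9 and 25.4% in m5 against at most 1.35% in vehicle tumors, and NM_001277876.1 of Tpm2 narrows from about 15.6% in vehicle tumors to 1.99% in m9.

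The alpha2 transcript of Mef2a, NM_001291191.2, stood at 5.65 to 9.61 tpm and held 22.4% ± 3.91 (SD, n = 3) of the gene in vehicle, 25.9% ± 7.10 after VCR, 22.0% ± 3.89 after RCM1-NPFA and 23.1% ± 3.87 after the combination (SD, n = 3 each). The alpha2 transcript of Mef2d, NM_001310593.1, held 9.20% ± 2.40 (SD, n = 3) in vehicle and 11.2% ± 6.11 after VCR (SD, n = 3), and it was highest in m5 (16.8%) and m9 (16.0%). Neither was told apart from vehicle in any treatment, with exact permutation p of 0.4 or more (two-sided) in all 6 comparisons. So few tumors cannot show that the shares were alike. The Mef2d transcript with the beta exon, NM_001310587.1, is typed with the ubiquitous alpha1 exon and not with alpha2. It is a low one, and was at 1.116, 1.34 and 1.52 tpm in vehicle tumors, 3.40, 5.07 and 1.37 tpm after VCR, 0.074, 2.08 and 3.41 tpm after RCM1-NPFA and 1.84, 2.64 and 1.70 tpm after the combination. Its share was 2.69% ± 0.123 (SD, n = 3) in vehicle and 6.90% ± 3.78 (SD, n = 3) after VCR, without overlap (exact permutation p = 0.1, two-sided), and its usage value was 1.39 (adjusted p = 0.658, edgeR).

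The Fxr1 transcript with the muscle exon, NM_001113188.1, was higher in treated tumors in part of the comparisons. It was at 9.55, 7.44 and 8.40 tpm in vehicle tumors, 12.1, 18.1 and 11.4 tpm after VCR, 10.8, 11.9 and 22.5 tpm after RCM1-NPFA and 11.3, 12.8 and 7.36 tpm after the combination. Its share of Fxr1 was 6.13% ± 1.28 (SD, n = 3) in vehicle, 11.97% ± 3.54 after VCR, 11.3% ± 4.48 after RCM1-NPFA and 8.68% ± 1.91 after the combination (SD, n = 3 each). The VCR and the RCM1-NPFA tumors were all above the vehicle tumors (exact permutation p = 0.1 in both, two-sided), and the combination overlapped with vehicle (exact permutation p = 0.2, two-sided). The usage value after VCR was 0.97 (adjusted p = 0.293, edgeR) and after RCM1-NPFA 0.90 (adjusted p = 0.504, edgeR). The untyped XM_006535401.1 was listed at 0.0, 0.225 and 0.0 tpm in vehicle tumors, 0.0, 2.81 and 8.76 tpm after RCM1-NPFA, and rose there in edgeR (5.80, adjusted p = 0.048) but not in limma (adjusted p = 0.881). Without m9 its edgeR adjusted p was 0.572, and leaving out m1, m2 or m3 also ended the call, with adjusted p of 0.24, 0.164 and 0.106 (edgeR).

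Among all 63 transcripts the edgeR usage test called 3 after VCR, 3 after RCM1-NPFA and 0 after the combination, all named above. The share called of all 21967 transcripts was 1.95% after VCR, 0.624% after RCM1-NPFA and 0.118% after the combination. Limma called 3 of the 63 after VCR, the Tpm1, Tpm2 and Bin1 transcripts NM_001164248.1, NM_001277876.1 and XM_006525991.4, and 0 after either other treatment, where it called 2.16%, 0.382% and 0.0319% of all transcripts. Compared with VCR alone and with RCM1-NPFA alone, the combination had 0 of the 63 called, where edgeR called 0.205% and 0.0774% of all transcripts. The muscle-type share under the combination minus that under VCR was -7.67 points for Tpm1 and -3.29 for Fxr1, and minus that under RCM1-NPFA -8.31 and -2.65 points. Over the 7 genes the exact permutation p of these comparisons was 0.3 or more (two-sided). With 3 against 3 tumors this cannot show that the shares were alike. The number of the 63 called after VCR was 2 without m4 or m5, 4 without m3 or m7 and 6 without m6 or m9, and it was 8 with only the groups compared. After RCM1-NPFA it was 0 without m9. After the combination it was 2 without m9, 1 without m2, m7, m8, m10 or m12, and 3 with only the groups compared or without m5 and m9. Against RCM1-NPFA alone, the value of NM_001164248.1 of Tpm1 passed in opposite directions: 2.84 without m9 (adjusted p = 0.0673, edgeR), and -1.94 without m7 and -2.00 without m8 (adjusted p = 0.0323 and 0.0271, edgeR). Against VCR alone it passed without m9 (-1.07, adjusted p = 0.0116, edgeR). Over all transcripts edgeR called 429 after VCR, and 170 without m1, 183 without m2, 773 without m3, 178 without m4 and 129 without m5.

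Counted by overlap alone, 21 of the 63 transcripts had shares that did not overlap between VCR and vehicle, 8 of them higher and 13 lower, against 17.9% of all transcripts. After RCM1-NPFA there were 10 (3 higher, 7 lower), against 13.5%, and after the combination 11 (5 higher, 6 lower), against 11.6%. Bin1 gave 7 of the 21 after VCR and Tpm2 gave 4, and all 4 kept transcripts of Tpm2 were among them.

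In edgeR's quasi-likelihood test of gene sums with Benjamini-Hochberg adjustment over 17599 genes, 0 of the 8 genes passed after VCR, where 5.68% of all genes did. That share rested on single tumors: of 17599 genes 1000 passed, but 0 without m2 or m4, 1 without m5 or m11, 283 without m1, 332 without m12 and 626 without m10, and 2046 without m6 and 1506 without m9. None of the 8 passed after RCM1-NPFA or after the combination, where 0.0% and 0.0% of all genes did, with 1759 and 1294 genes at an unadjusted p under 0.05. DESeq2 called 277 and 61 genes in these comparisons and again 0 of the 8. The gene-level values of Tpm2 and Tpm1 after VCR were 1.02 ± 0.318 (log2, SE; adjusted p = 0.109, edgeR) and 0.51 ± 0.175 (log2, SE; adjusted p = 0.132, edgeR). DESeq2 called both (adjusted p = 0.077 and 0.0407). Both also passed in edgeR without m9 (adjusted p = 0.0408 for Tpm2 and 0.0499 for Tpm1) and without m6 (adjusted p = 0.0621 and 0.096), when Mef2a passed as well (-0.33, adjusted p = 0.0596), and Tpm2 passed without m7 (adjusted p = 0.0979).

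The tumors differed widely in RNA of skeletal muscle fibres, and the muscle-type shares went with it. The summed cpm, counts scaled to sequencing depth, of 22 fibre genes, such as Acta1 (skeletal actin), Ckm (muscle creatine kinase) and Myh4 (a fast myosin), were 459, 315 and 318 in vehicle tumors, 4589.8, 13604 and 2209.5 after VCR, 412, 554 and 21186 after RCM1-NPFA, and 2839.7, 5578 and 818 after the combination. All VCR and combination tumors were above all vehicle tumors, and m9 stood above all others. In vehicle tumors most of the sum was Eno3, at 280, 261 and 272 cpm in m1, m2 and m3. Not every listed gene followed the sum. Myh7 stayed at or under 0.128 cpm in all tumors. Tnnt1 was highest in m8 at 4.445 cpm and Tnni1 in m12 at 1.73 cpm, and in m9 they were at 1.775 and 0.716 cpm. Differences in fibre RNA, here and below, thus come from other genes of the list. The myoblast and RMS list (Myod1, Myog, Myf5, Pax7, Pax3 and Des) summed to 67.9 to 81.5 cpm in vehicle and 65.4 to 621 cpm in treated tumors, mostly through Des (desmin, a filament protein that fibres also hold), at 7.87 to 11.001 cpm in vehicle and 567 cpm in m9. Myf5 was at 54.0 to 70.9 cpm in vehicle and 48.6 to 68.2 cpm in treated tumors, Pax3 at 2.76 to 3.54 and 1.93 to 3.06 cpm, and Myod1, Myog and Pax7 at or under 0.065 cpm in vehicle. Myod1 was at 2.37, 2.295 and 1.22 cpm after VCR, 0.033, 0.0 and 2.27 after RCM1-NPFA, and 0.655, 0.719 and 0.449 after the combination. Myog was at 2.15, 1.59 and 1.45 cpm after VCR, 0.0, 0.286 and 0.965 after RCM1-NPFA, and 0.499, 0.817 and 1.63 after the combination. Pax7 stayed at or under 0.19 cpm in treated tumors. The smooth muscle list was at 229 to 301 cpm in all 12 tumors. The endothelial list was at 143.5, 108 and 115 cpm in vehicle, 145, 184 and 145 cpm after VCR, 145, 142 and 170.4 cpm after RCM1-NPFA and 152, 149.9 and 153 cpm after the combination, and its part in the results was not tested. Host muscle taken with a tumor and muscle genes used by the tumor's cells cannot be told apart in bulk RNA.

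Across the 12 tumors the muscle-type share rose with the log2 of fibre RNA for 5 of 7 genes (permutation test with 100000 resamples, adjusted over the 7 genes). Pearson's r was 0.944 for Tpm2, 0.908 for Fxr1 and 0.886 for Tpm1 (adjusted p = 2.33e-05 in each, from the smallest p these permutations can give, 1e-05), 0.849 for Pkm (permutation adjusted p = 0.000157) and 0.707 for Mef2d (permutation adjusted p = 0.0167). Spearman's rho was 0.909, 0.909, 0.93, 0.699 and 0.622 in the same order (permutation adjusted p of 0.00028, 0.000443, 0.00021, 0.024 and 0.0483). For Mef2a (r = 0.391, rho = 0.413) and Tpm3 (r = -0.104, rho = -0.112) it did not pass (permutation adjusted p = 0.242 and 0.746 for r, 0.215 and 0.733 for rho).

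Without m5 and m9, which lay farthest from the median fibre level, r was 0.913 for Tpm1, 0.929 for Tpm2, 0.813 for Fxr1 and 0.719 for Pkm, and 0.358 for Mef2d, whose relation rested on these 2 tumors. With the group means removed, r was 0.973 for Tpm1, 0.926 for Tpm2, 0.971 for Pkm, 0.846 for Mef2d and 0.948 for Fxr1, with adjusted p of 0.00724, 0.0204, 0.0163, 0.0204 and 0.00539 (permutation within groups). Without m5 and m9 these within-group values were 0.898, 0.633, 0.843, 0.58 and 0.91, given as a description over 10 tumors. With fibre RNA as a covariate, the edgeR usage value of NM_001164248.1 was -0.49 after VCR (adjusted p = 1) and -0.43 after RCM1-NPFA (adjusted p = 1). The share of this transcript itself followed fibre RNA (rho = 0.958), and all VCR tumors were above all vehicle tumors in fibre RNA. This fit therefore cannot separate a treatment effect from fibre RNA, and no conclusion is drawn from it.

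**Figure D4:**
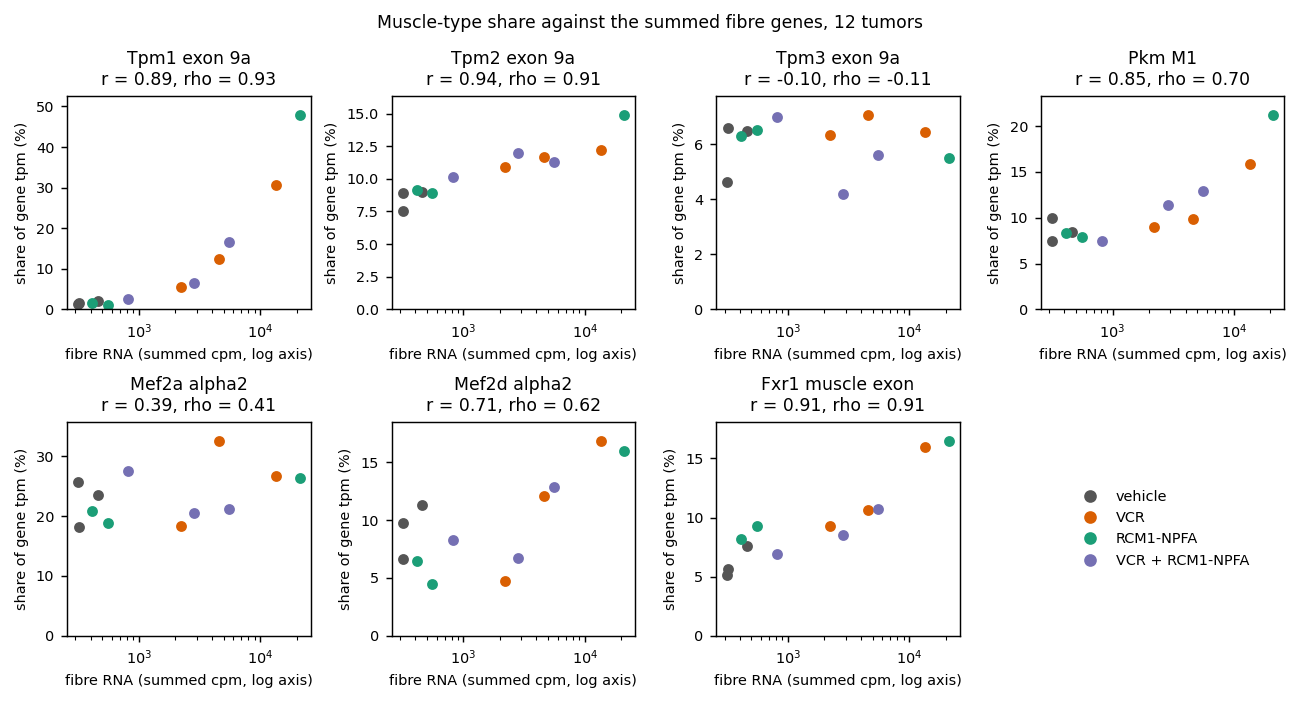
Share of the gene's tpm (percent) held by muscle-type transcripts against the summed cpm of 22 fibre genes (log axis) in the 12 tumors, coloured by group, one panel per gene. The share rises with fibre RNA in Tpm1, Tpm2 and Fxr1, with rho of 0.93, 0.909 and 0.909, and Tpm3 shows no trend (rho = -0.112). In Fxr1 the RCM1-NPFA tumors m7 and m8, at 412 and 554 cpm, lie above all vehicle tumors, at 8.2% and 9.3%. Whether the groups share one curve was not tested.

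Of the 63 transcripts, 9 had a Spearman's rho of at least 0.7 between share and fibre RNA and 7 had one of at most -0.7. Among all 21967 transcripts these shares were 1.51% and 1.62%. All transcripts were measured in the same 12 tumors, so this is a description only. The 9 were NM_001164248.1 of Tpm1 (0.958), NM_001113188.1 and XM_006535401.1 of Fxr1 (0.909 and 0.718), NM_009416.4, NM_001277875.1 and XM_006537780.1 of Tpm2 (0.909, 0.881 and 0.734), XM_006525991.4 and XM_006525994.4 of Bin1 (0.895 and 0.825) and the beta exon transcript of Mef2d (0.853). Of the 8 muscle-type transcripts 3 were among them, and the others went down to -0.112. None of the 12 transcripts typed as other was among them, and 3 of these 12 were among the 7 with falling shares: NM_001277876.1 of Tpm2 (-0.944), NM_001083334.1 of Bin1 (-0.888) and NM_024427.4 of Tpm1 (-0.846). Shares within a gene sum to the whole, so a rising transcript lowers the others.

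**Figure D5:**
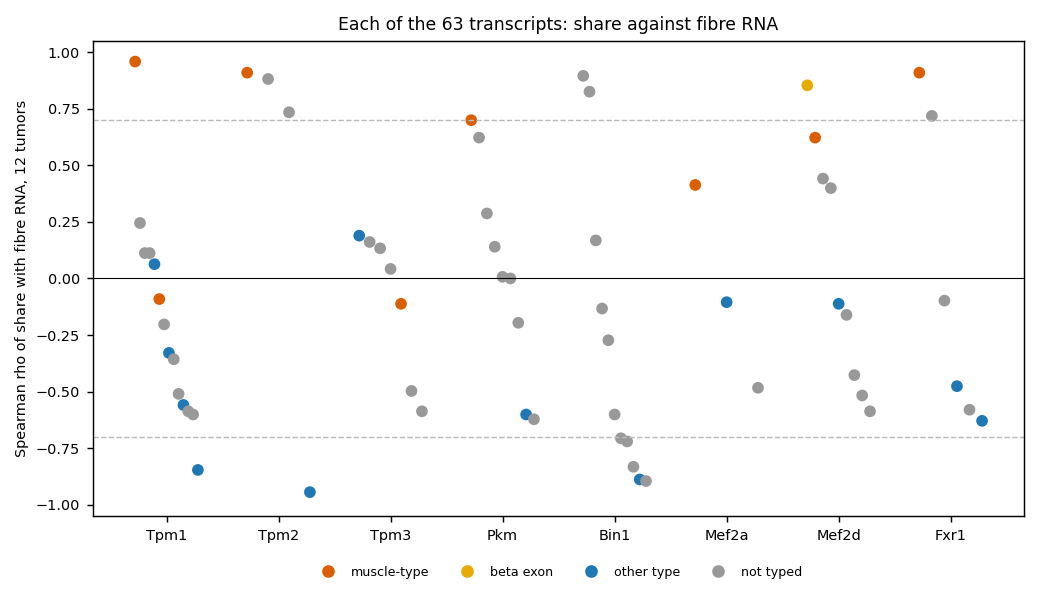
Spearman's rho between a transcript's share and fibre RNA over the 12 tumors, one point for each of the 63 transcripts, by gene and coloured by type; transcripts whose link and length disagree are drawn as not typed. Dashed lines mark 0.7 and -0.7, and Bin1 and Tpm2 have points beyond both lines while all points of Tpm3, Pkm and Mef2a lie between them.

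The profile of the members, taken as the mean of the standardised muscle-type shares of the 7 genes, was most alike in 5 transcripts of other genes, by Pearson's r over the 12 tumors. They were NM_001359105.1 of Cavin1, a caveola protein (r = 0.957), NM_001190853.1 of Pdlim5, a PDZ and LIM protein (r = 0.948), XM_030246485.1 of Rapgef1, a guanine nucleotide exchange factor (r = 0.942), NM_001311074.2 of Flnc, the muscle filamin (r = 0.934), and NM_001037761.2 of Capzb, an actin-capping subunit (r = 0.932). The Flnc transcript held 1.86% to 9.20% of its gene in vehicle tumors, 20.7% to 54.0% after VCR, and 58.8% in m9. The Pdlim5 transcript was listed at 0 in every vehicle tumor and held 6.42% to 22.1% after VCR and 37.3% in m9.

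Of 32 further genes listed for known muscle-type splicing, 24 had transcripts tested, 128 in all, and edgeR called 3 as higher and 4 as lower after VCR, 2 as higher and 1 as lower after RCM1-NPFA and 0 after the combination, while limma called 1, 0 and 0. In edgeR this was 5.47%, 2.34% and 0.0% of the 128, beside 1.95%, 0.624% and 0.118% of all transcripts, and in limma 0.781% after VCR, beside 2.16%. The median log2 usage value of the 128 was 0.01, -0.03 and -0.02 in edgeR. The call that limma shared was NM_016760.3 of Clta, clathrin light chain A, which fell after VCR by 1.01 (adjusted p = 0.0576, edgeR; adjusted p = 0.0373, limma). Fhl1, a LIM protein of muscle, gained NM_001077362.2, from at most 0.169% of the gene in vehicle tumors to 34.5%, 50.3% and 37.7% after VCR (adjusted p = 0.00142, edgeR; adjusted p = 0.473, limma), and NM_010211.3 of the same gene fell from 52.9% or more to 34.1% or less (adjusted p = 0.0794, edgeR; adjusted p = 0.804, limma).

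NM_020007.4 of the splicing regulator Mbnl1 held 15.1%, 0.252% and 16.0% of the gene in vehicle tumors and 1.00% or less after VCR. EdgeR called it lower after VCR (adjusted p = 0.00827, edgeR; adjusted p = 0.716, limma) and after RCM1-NPFA (adjusted p = 0.0487, edgeR; adjusted p = 0.726, limma). Through m2, at 0.252%, the vehicle tumors overlapped with both treated groups. XM_006501797.4 of Mbnl1 was also called after VCR (adjusted p = 0.0962, edgeR; adjusted p = 0.887, limma), at 2.19%, 15.3% and 0.006% in vehicle tumors. NM_001190853.1 of Pdlim5 was called after VCR (adjusted p = 0.0778, edgeR; adjusted p = 0.643, limma) and RCM1-NPFA (adjusted p = 0.0968, edgeR; adjusted p = 0.892, limma). XM_006500832.3 of Camk2d, a calcium-dependent kinase, was called after VCR (adjusted p = 0.0512, edgeR; adjusted p = 0.434, limma). Fhl1 NM_001077362.2 was also called after RCM1-NPFA (adjusted p = 0.0727, edgeR; adjusted p = 0.882, limma), where it was at 3.05%, 0.001% and 43.2%.

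A list of 28 RNA-binding proteins was drawn up for a role in muscle splicing or in the splicing of the 8 genes. Of these, 26 were tested at the gene level, and 2 rose and 1 fell after VCR (11.5%, beside 5.68% of all genes). After either other treatment 0 passed. None of these 3 passed without m1, m2, m4, m5, m11 or m12, and Rbm38 alone passed without m10. Their median log2 change was 0.02 after VCR, against 0.00 for all genes tested. Rbm38, a regulator of RNA stability and muscle differentiation, rose by 0.58 ± 0.144 (log2, SE; adjusted p = 0.0787, edgeR), Srsf2, a serine-arginine splicing factor, rose by 0.25 ± 0.0698 (log2, SE; adjusted p = 0.0932, edgeR), and Celf2, a CUG-binding regulator, fell by 0.27 ± 0.0762 (log2, SE; adjusted p = 0.0882, edgeR). Rbm24, a muscle-specific splicing activator, was at 0.16, 0.00 and 0.00 cpm in vehicle tumors, 4.49, 7.74 and 2.04 cpm after VCR, 0.30, 0.29 and 15.8 cpm after RCM1-NPFA and 1.90, 4.21 and 0.74 cpm after the combination (adjusted p = 0.102 after VCR, edgeR). Ptbp1, which represses muscle-type exons of several of these genes, stayed at 555 to 655 cpm in all 12 tumors.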

How the data were processed

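The 12 abundance tables, 1 per tumor, were used. Per the labels and the study's methods, the authors made poly-A libraries with a TruSeq Stranded kit, called non-stranded, and ran kallisto with standard settings on GRCm38 transcripts (versions are not given in the sources used here). The deposited estimated counts are fractional read counts per transcript, not normalized, and the deposited TPM values are corrected for length and scaled to a fixed sum per tumor. The error of assigning reads among transcripts of a gene was not measured and is in no value. The deposited lengths were used to type transcripts. Counts were rounded, and cpm and gene sums were computed from them with RefSeq gene links (120289 of 120299 transcripts; the other 10 held at most 0.0149% of counts).

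Usage was tested with edgeR 4.0.16 (diffSpliceDGE on glmQLFit, TMM; R 4.3.3) on transcripts with a mean tpm of 1 or more in genes with 2 or more of them, in one fit of 4 groups. Gene sums were tested with glmQLFTest after filterByExpr at a minimum count of 10. Limma 3.58.1 (voom, diffSplice; also log2 odds with a pseudocount of 0.5 or 0.1) and DESeq2 1.42.0 were alternatives. The usage tests were also scored on simulated counts. Exact permutation tests (3 against 3, two-sided) compared shares, and correlations used Python 3.11 scripts.

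The labels do not say whether tumors shared a mouse, so p-values measure only the spread between these samples. Members and lists were chosen with earlier results of these data known. All 63 transcripts entered the tests by the rule, but only part of them are named in the text. Also named were the 5 most alike of other genes, and from the 2 lists of further genes up to 4 by smallest p plus all that passed. Exon sequences are from the reference transcripts of GENCODE M21. Coordinates and sequence for Bin1 are not reported here.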

Additional observations from a re-analysis of the deposited data

Results flagged for a closer look

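For 3 pairs of effects on a muscle-type share, every tumor that got a drug alone lay above the mean of the vehicle tumors, and every tumor that got both drugs lay below the mean of the tumors that got the other drug alone. The differences between these effects were not tested. For Tpm1 the VCR mean minus the vehicle mean was 14.67 points and the combination mean minus the RCM1-NPFA mean was -8.31 points. Without m5 and m9 both were positive, at 7.43 and 7.20 points. For Fxr1 the same differences were 5.84 and -2.65 points, and 3.84 and -0.08 points without m5 and m9. For Fxr1 the RCM1-NPFA mean minus the vehicle mean was 5.20 points and the combination mean minus the VCR mean was -3.29 points, and without m5 and m9 they were 2.63 and -1.29 points.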

How the results depend on the processing

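No paired analysis was possible because no replicate number in the labels stands in more than 1 group. Another scaling (DESeq2 size factors) gave 435 transcripts with a changed share after VCR in place of 429, and 972 genes with a changed level (426 higher, 546 lower) in place of 1000 (499 and 501). The number of transcripts with a changed share depended on most other settings. It was 429 after VCR, 137 after RCM1-NPFA and 26 after the combination, each against vehicle, and 45 and 17 for the combination against VCR and against RCM1-NPFA. In that order it was 244, 75, 15, 25 and 6 at a threshold of 0.05. Without the filter on mean tpm it was 830, 420, 126, 156 and 71. Without m5 and m9 it was 128, 70, 44, 23 and 33. Limma on log2 odds gave 18, 3, 2, 1 and 0 with a pseudocount of 0.1 and 27, 0, 0, 1 and 0 with a pseudocount of 0.5. A mean of 5 tpm or more gave 38, 10, 18 and 9 in all but the first, and limma's diffSplice gave 84, 7, 22 and 0 in these. With fibre RNA as a covariate it was 111, 44, 16 and 31 in all but the combination against VCR. Limma without m5 and m9, chosen after seeing the data, gave 94, 56, 5 and 6 in all but the combination against vehicle. Fitting only the groups compared gave 274 after VCR and 81 and 31 for the combination against each drug. Leaving out 1 tumor at a time gave 129 to 773, 42 to 445, 8 to 160, 22 to 141 and 3 to 24. Of the 8 genes, 0 changed in level after VCR, 2 in DESeq2, 1 without m5 and m9, and 0 to 3 with 1 tumor left out. Without m5 and m9 the difference in muscle-type share from vehicle turned to -0.19 points for Tpm1 and -0.52 for Pkm after RCM1-NPFA, and to -0.81 for Mef2d after VCR. With 1 tumor left out it ran after RCM1-NPFA from -0.19 to 23.18 for Tpm1, -0.43 to 0.55 for Tpm3, -0.52 to 6.14 for Pkm, -2.55 to 1.26 for Mef2a and -3.76 to 2.01 for Mef2d, after VCR from -0.81 to 5.25 for Mef2d, and after the combination from -1.01 to 0.40 for Tpm3, -1.58 to 2.28 for Mef2a and -1.72 to 1.35 for Mef2d. The correlation with fibre RNA was 0.038 for Tpm3 with Ckm alone. For Mef2d it was 0.537 with Ckm alone, 0.358 without m5 and m9, 0.612 for levels in tpm (chosen after seeing the data) and 0.608 to 0.789 with 1 tumor left out. The usage value of NM_001164248.1 of Tpm1 turned to -0.49 after VCR and -0.43 after RCM1-NPFA with fibre RNA as a covariate. After RCM1-NPFA it was -0.05 in edgeR and -0.00 in limma without m5 and m9, and ran from -0.05 to 4.80 with 1 tumor left out. The cause of these shifts was not tested, other than that fewer samples or transcripts enter some fits. With 3 tumors per group no exact test could pass 0.05, and depth was close to even among the tumors.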
